A study of Mus musculus with 12 samples.

Results

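A group of 36 genes in MC3T3 sc4 cells was higher with the EZH2 inhibitor GSK126 and lower with bone morphogenetic protein 2 (BMP2) on day 6 of osteogenic culture. It held the elastic fibre genes Eln and Mfap4, the imprinted neighbours H19 and Igf2, and other matrix, signalling and metabolic genes. The members were chosen from the day 6 libraries alone, on CPM (a gene's count scaled to the library's sum without the ribosomal RNA precursor Rn45s). A member had at least 1 CPM in the day 6 vehicle library. Its CPM with GSK126 was at least 25% higher than without at each of the 3 BMP2 doses, and its CPM with BMP2 was at most 0.8 times that without in each of the 4 comparisons at equal GSK126. Of 23358 rows in the table, 23289 had a name of their own, 11733 of those reached 1 CPM in the vehicle library, and 36 met both criteria.

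MC3T3 is a mouse osteoblast precursor line, labelled as strain C57BL/6 calvarial osteoblasts at passage 12. All 12 conditions shared osteogenic medium with 50 µg/ml ascorbic acid and 4 mM β-glycerol phosphate, and medium and agents were renewed after 3 days. On day 1 and on day 6 RNA was taken from cells given vehicle, BMP2 at 10 ng/ml, BMP2 at 50 ng/ml, 5 µM GSK126, GSK126 with 10 ng/ml BMP2, or GSK126 with 50 ng/ml BMP2. Each condition is 1 library of 1 cell line, and no label gives separate cultures as their source.

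BMP2 binds receptor kinases that phosphorylate SMAD transcription factors, and it drives pre-osteoblasts towards bone formation. EZH2 is the catalytic subunit of Polycomb repressive complex 2, which methylates histone H3 on lysine 27 at silent genes, and GSK126 blocks that activity. The study compared the agents alone and together, and its labels name osteogenic genes raised by both. The genes described here were instead lower with one agent and higher with the other.

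Libraries held 74301112 to 113744802 counts. Every count was even, so intervals below were computed on read pairs (the counts divided by 2), cover counting error only and are 95% intervals. A limit of 3 read pairs was set for low counts, which came to 0.0582 to 0.0957 CPM. The interval of a count of 0 reached past this limit. For Eln on day 1 in 10 ng/ml BMP2 without GSK126 it reached 0.096 CPM, where 3 pairs came to 0.078 CPM. The 10 osteoblast markers listed (such as Runx2, Alpl, Ibsp and Bglap) were all detected above 1 CPM in the day 6 vehicle library. Their summed level was 76300 to 163000 CPM over the day 6 libraries. Most of this sum was Col1a1 and Col1a2 (34000 and 37600 CPM in vehicle). Postn, also on this list, went from 3690 CPM in vehicle to 1060 CPM in 50 ng/ml BMP2 with GSK126. The 8 leukocyte markers summed to 8.07, 7.63 and 6.89 CPM on day 6 at 0, 10 and 50 ng/ml BMP2 without GSK126, and to 15.7, 15.2 and 10.9 CPM with it, so this sum moved in the same directions as the members. Most of it was Lyz2, while Ptprc, Emr1, Cd3e and Itgam stayed below 0.2 CPM in all 12 libraries. Csf1r went the other way, at 0.666, 1.1 and 1.72 CPM without GSK126 and at 0.536, 0.872 and 0.947 CPM with it. Cd68 was higher with BMP2 and not higher with GSK126 (ratios 0.996, 0.997 and 0.902). Over the day 6 libraries the endothelial sum (1.41 to 15.6 CPM), the muscle sum (3.97 to 11.3 CPM) and the chondrocyte sum (111 to 1260 CPM) were lowest in vehicle and highest in 50 ng/ml BMP2 with GSK126. Most of each sum was 1 gene: Vwf, Des and Col2a1, respectively. Other markers did not all follow their sum. Between the same day 6 libraries the chondrocyte marker Sox9 went from 31.7 to 21.9 CPM. The endothelial marker Esam went from 0.359 to 0.267 CPM. On day 6 Rn45s took 15.4%, 17.2% and 21.7% of counts in vehicle, 10 and 50 ng/ml BMP2, and 14.5%, 13.5% and 13.1% in the matching libraries with GSK126. The part of the marker sums and of the Rn45s share in the members' values was not tested.

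RefSeq promoter sequences (GRCm38.p6, 250 bases before to 50 after the gene start) could be matched by symbol and position to 22 of the 36 genes. Eln, Mfap4 and H19 were among those without a match, so the promoter values below do not cover them. Promoters are shown because EZH2 targets in mammals are often described as rich in CpG, and the members' promoters spanned a wide range. Over the 22 the median was 14 CpG dinucleotides per promoter (1 to 51), and 10 of 22 (45.5%) held 15 or more. Among 8235 matched genes with at least 1 CPM in the day 6 vehicle library the median was 22 and 74.7% held 15 or more. These 4 examples run from few to many CpG, with each CG in capitals, 5′ to 3′ on the gene's strand: Agt with 1 CpG at chr8:124569657-124569956 (minus strand), Htra3 with 3 at chr5:35679731-35680030 (minus strand), Col23a1 with 24 at chr11:51289670-51289969 (plus strand) and Tmem86a with 25 at chr7:47050390-47050689 (plus strand).
Agt: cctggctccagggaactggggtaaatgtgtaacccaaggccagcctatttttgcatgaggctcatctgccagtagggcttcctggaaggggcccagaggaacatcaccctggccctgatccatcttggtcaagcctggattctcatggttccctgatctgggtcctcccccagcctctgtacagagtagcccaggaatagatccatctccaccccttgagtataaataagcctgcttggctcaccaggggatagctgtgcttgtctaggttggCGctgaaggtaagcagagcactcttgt
Htra3: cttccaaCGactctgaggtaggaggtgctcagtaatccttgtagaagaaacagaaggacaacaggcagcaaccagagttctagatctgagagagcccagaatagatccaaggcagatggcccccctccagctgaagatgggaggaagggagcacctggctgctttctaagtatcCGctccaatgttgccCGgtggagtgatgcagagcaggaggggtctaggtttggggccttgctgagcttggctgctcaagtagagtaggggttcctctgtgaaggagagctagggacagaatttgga
Col23a1: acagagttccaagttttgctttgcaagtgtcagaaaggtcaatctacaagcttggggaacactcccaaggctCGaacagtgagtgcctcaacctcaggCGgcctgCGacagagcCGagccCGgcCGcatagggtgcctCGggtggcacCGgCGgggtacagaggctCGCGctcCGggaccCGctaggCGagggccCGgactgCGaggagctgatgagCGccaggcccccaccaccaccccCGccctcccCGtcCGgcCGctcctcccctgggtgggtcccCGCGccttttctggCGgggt
Tmem86a: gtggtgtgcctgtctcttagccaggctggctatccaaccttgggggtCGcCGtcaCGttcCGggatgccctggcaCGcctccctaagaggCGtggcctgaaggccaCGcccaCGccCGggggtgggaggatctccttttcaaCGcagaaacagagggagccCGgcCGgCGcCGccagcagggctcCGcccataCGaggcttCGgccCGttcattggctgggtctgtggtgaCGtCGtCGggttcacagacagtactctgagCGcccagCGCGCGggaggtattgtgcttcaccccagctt

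All 4 genes met the same day 6 rule. Col23a1 and Tmem86a, with similar CpG numbers, had GSK126 ratios that ran in opposite order over the BMP2 doses, given below. Motifs were searched on both strands of the 22 promoters. GGCGCC, which shares bases with CG dinucleotides, was in 5 (22.7%, against 22.8% of the 8235). The AP-1 motif TGANTCA was in 4 (18.2%, against 4.59%): Dhrs9, Gng2, Lrrc8b and Tnxb. TATAAA was in 3 (13.6%, against 6.67%), among them Agt. A match describes these letters in this window and is no evidence of binding.

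On day 6 the GSK126 criterion was met by 461 of the 11733 genes (3.93%) and the BMP2 criterion by 991 (8.45%). The 36 genes that met both were 0.307% of the 11733, 7.81% of the former and 3.63% of the latter. With 25% higher, or 0.8 or less, as limits for either agent, 100 genes (0.852%) were higher with both agents and 323 (2.75%) lower with both. The comparisons share libraries, so these shares are not independent of one another. Because the rule used every day 6 contrast of both agents, the members' day 6 values are a description with no test. In RNA from whole cultures, fewer cells of a type and less RNA per cell cannot be told apart.

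**Figure D1:**
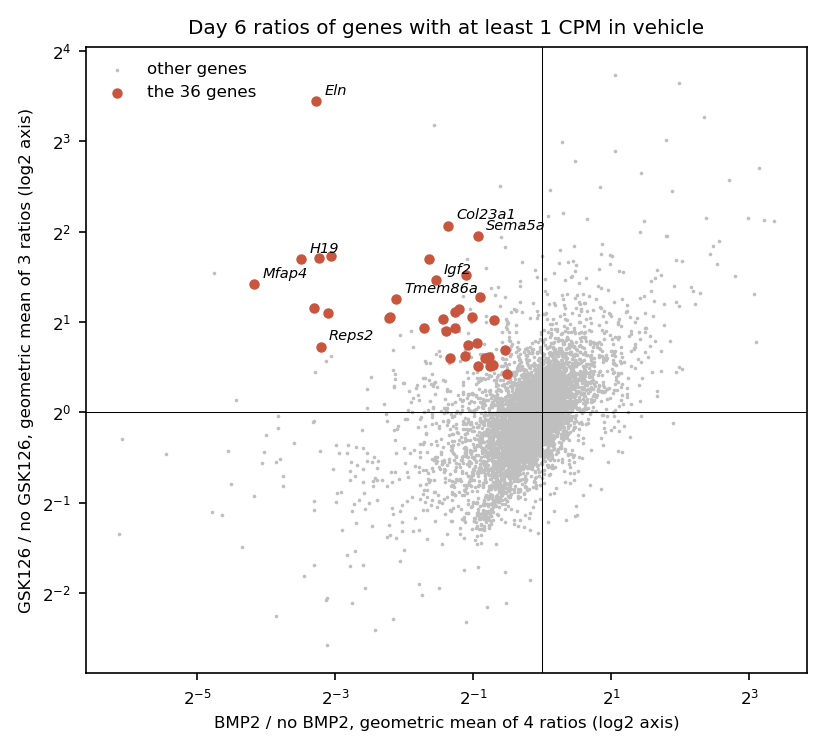
Geometric mean ratios on day 6 for genes with at least 1 CPM in vehicle, with the BMP2 ratio (4 comparisons) on the horizontal axis and the GSK126 ratio (3 comparisons) on the vertical axis, both on log2 axes; red points are the 36 members. The members lie in the upper left by choice, with Eln highest at a GSK126 ratio of 10.9 and Mfap4 farthest left at a BMP2 ratio of 0.0553.

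The median GSK126 ratio of the 36 was 1.63 without BMP2, 1.88 at 10 ng/ml and 2.27 at 50 ng/ml, beside 0.958, 0.957 and 0.989 over all genes with 1 CPM in vehicle. Without GSK126 the members' median BMP2 ratio was 0.501 at the lower and 0.283 at the higher dose, and with GSK126 it was 0.573 and 0.356, beside 0.95, 0.864, 0.952 and 0.89 over all genes. The geometric mean GSK126 ratio was at least 2 in 21 members, and the geometric mean BMP2 ratio at most 0.5 in 25. The rule chose members on these same 7 ratios. Even so, only 21 of the 36 had all 7 counting intervals clear of 1, a description of counting error and no test. Members just inside the limits included Rgs2 and Mapt, with smallest GSK126 ratios of 1.264 and 1.272. Just outside were Ahrr, Pcdhb4 and Cybrd1, at 1.226, 1.225 and 1.218. For the largest BMP2 ratio Col23a1 and Inpp4b were just inside (0.7947 and 0.7661), and Enpp4, Armcx6 and Rgag4 just outside (0.8136, 0.818 and 0.82). For the vehicle level Col23a1, Dhrs9 and Inpp4b were just inside (1.05, 1.281 and 1.281 CPM), and Gpr64, Itih5 and Slc27a6 just outside (0.8454, 0.8198 and 0.7942 CPM).

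**Figure D2:**
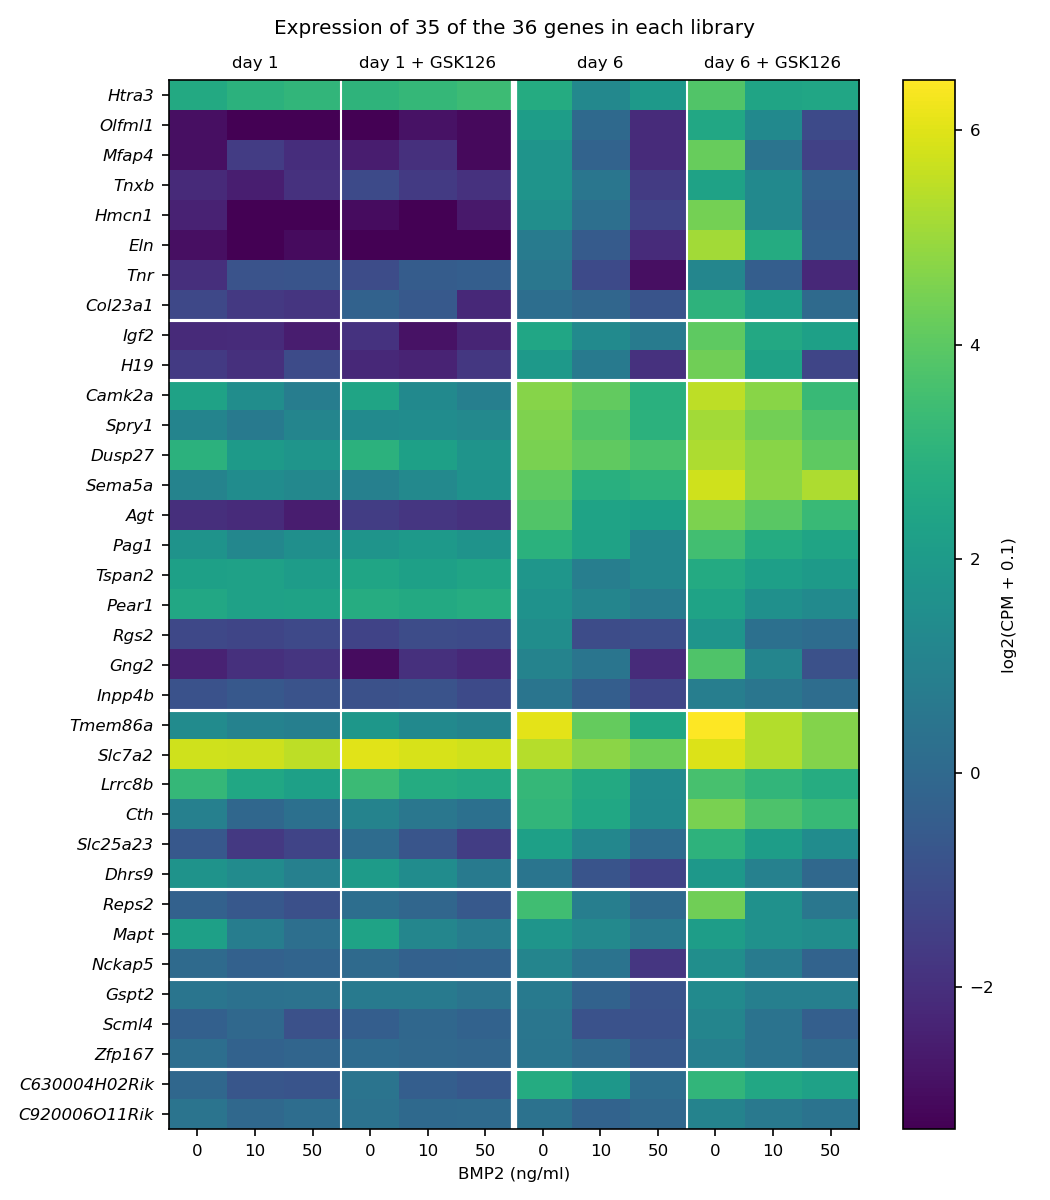
Level of 35 of the 36 genes in all 12 libraries, as log2(CPM + 0.1), with libraries ordered by day, GSK126 and BMP2 dose. On day 6 each gene is brightest in the library with GSK126 alone, which the rule requires, and many members are near the lower end of the scale on day 1.

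The 8 matrix and secreted members had the lowest BMP2 ratios as a group, with geometric means of 0.0553 to 0.418 (median 0.112), and GSK126 geometric means of 1.92 to 10.9 (median 2.45). Elastin (Eln), the core protein of elastic fibres, was at 1.59, 0.596 and 0.128 CPM on day 6 at 0, 10 and 50 ng/ml BMP2 without GSK126, and at 34.6, 6.45 and 0.704 CPM with it. The library with GSK126 alone stood far above the other five. The GSK126 ratio of Eln was 21.8 (16.9 to 28.5) without BMP2, 10.8 (6.88 to 18) at 10 ng/ml and 5.52 (1.94 to 21.6) at 50 ng/ml. Mfap4, a microfibril-associated glycoprotein that binds elastin, was at 3.28, 0.775 and 0.128 CPM without GSK126 and at 18.2, 1.26 and 0.267 CPM with it. Its GSK126 ratio was 5.56 (4.6 to 6.77) without BMP2 and 1.63 (1.01 to 2.7) at 10 ng/ml, and at 50 ng/ml it was 2.09 with an interval of 0.62 to 9.01 that spans 1. Hmcn1, a very large extracellular protein of the hemicentin family, was at 2.79, 1.1 and 0.287 CPM without GSK126 and at 21.3, 2.29 and 0.631 CPM with it. In these 3 genes GSK126 with 50 ng/ml BMP2 gave less RNA than vehicle alone.

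Col23a1, a transmembrane collagen, was at 1.05, 0.835 and 0.479 CPM without GSK126 and at 7.83, 4.14 and 0.947 CPM with it. Its GSK126 ratio was smaller at each higher dose: 7.46 (5.37 to 10.6), 4.96 (3.32 to 7.67) and 1.98 (1.07 to 3.86). The tenascins, large glycoproteins of the matrix, ran the other way in their point values, which rest on few read pairs at 50 ng/ml. Tnxb was at 3.25, 1.34 and 0.223 CPM without GSK126 and at 4.82, 2.42 and 0.728 CPM with it. Its GSK126 ratio was 1.48, 1.8 and 3.26, the last from 30 read pairs with GSK126 against 7 without. Tnr was at 1.36, 0.358 and 0.0319 CPM without GSK126 and at 2.17, 0.654 and 0.121 CPM with it. The Tnr value in 50 ng/ml BMP2 is 1 read pair, so its GSK126 ratio there, 3.81, has an interval of 0.426 to 180. It is the only member with a day 6 library at or under 3 pairs.

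Olfml1, a secreted olfactomedin domain protein, was at 4.23, 0.924 and 0.128 CPM without GSK126 and at 5.67, 2.4 and 0.364 CPM with it. Htra3, a secreted serine protease, was at 6.43, 2.27 and 3.83 CPM without GSK126 and at 13.9, 5.19 and 5.44 CPM with it. Unlike most members, Htra3 without GSK126 was higher at 50 than at 10 ng/ml (ratio 1.69, interval 1.26 to 2.28). Of the 22 listed proteoglycan and elastic fibre genes 19 had 1 CPM in vehicle. Of these 19, 3 met the GSK126 criterion (Eln, Mfap4 and Fbln2), 10 met the BMP2 criterion, and Eln and Mfap4 met both. In 4 of the 19 (Aspn, Vcan, Fbn2 and Mfap5) the GSK126 ratio was instead at most 0.8 at all 3 doses. The median geometric mean GSK126 ratio of the 19 was 0.751, so most of the list did not share the rise of Eln and Mfap4.

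The imprinted growth locus on chromosome 7 gave 2 members. H19 is a noncoding RNA expressed from the maternal allele, and Igf2 is a growth factor expressed from the paternal allele. Their genes lie 72622 bases apart and were the only pair of members within 200 kb of each other. H19 was at 3.82, 1.52 and 0.16 CPM on day 6 at 0, 10 and 50 ng/ml BMP2 without GSK126 and at 20.2, 4.88 and 0.316 CPM with it. Igf2 was at 5.43, 2.5 and 1.56 CPM without GSK126 and at 16.2, 5.84 and 4.69 CPM with it. Both were highest with GSK126 alone, which the rule requires. The lowest levels differed: BMP2 at 50 ng/ml left H19 at a ratio of 0.0418 (0.0134 to 0.0997) and Igf2 at 0.288 (0.207 to 0.394). The GSK126 ratio of Igf2 was 2.99, 2.33 and 3.0 over the doses, and that of H19 was 5.3, 3.21 and 1.98. Of the 10 genes of the IGF axis with 1 CPM in vehicle, 3 met the GSK126 criterion (Igf2, Igf2r and Igfbp6) and 4 the BMP2 criterion (Igf1, Igf2, Igfbp2 and Igfbp4). Igf1, the related growth factor, was at 132, 29.7 and 3.54 CPM without GSK126 and at 147, 18.8 and 2.94 CPM with it, so it was lower with BMP2 but not higher with GSK126 at the 10 and 50 ng/ml doses. Of 8 imprinted genes with 1 CPM in vehicle, 2 met the GSK126 criterion and 3 the BMP2 criterion, and H19 and Igf2 were the 2 that met both.

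**Figure D3:**
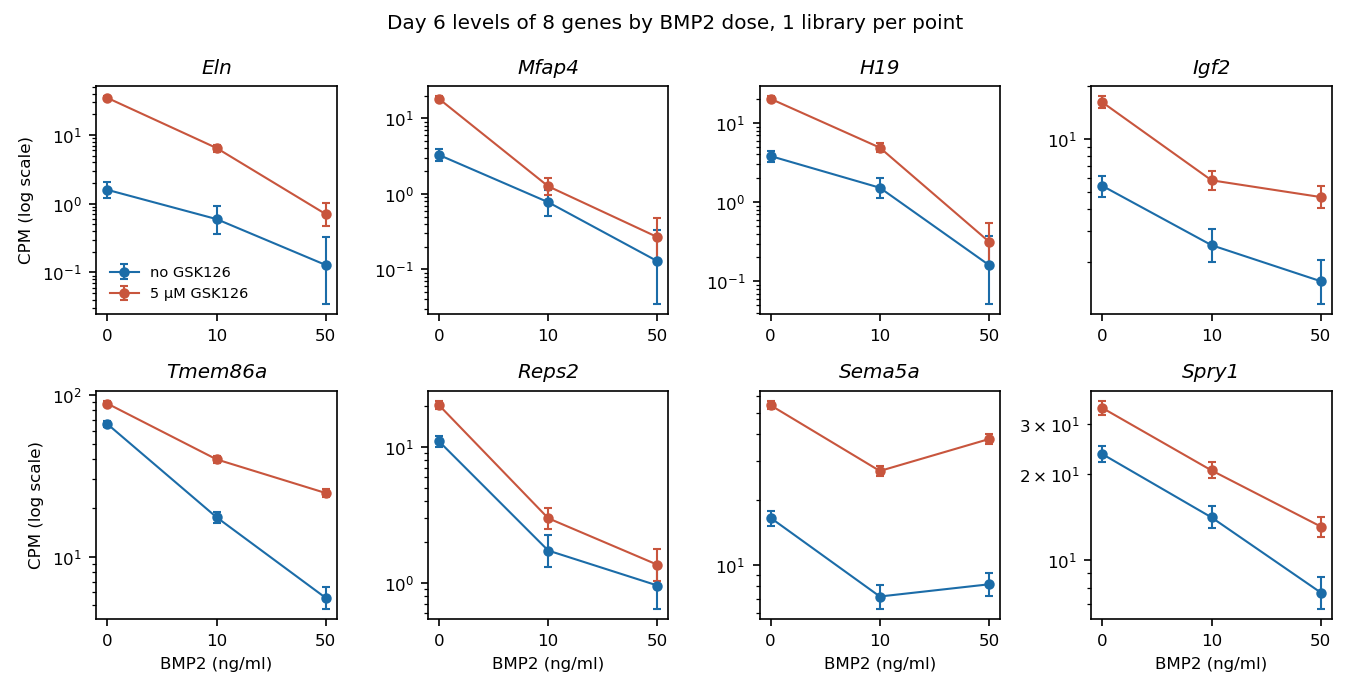
Day 6 CPM on log axes against BMP2 dose for 8 members, blue without and red with 5 µM GSK126, each point 1 library with its 95% counting interval. The lines converge with dose in Eln and H19, diverge in Tmem86a (GSK126 ratio 1.34 to 4.45), and turn up again at 50 ng/ml in Sema5a.

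The 11 signalling members had GSK126 geometric means of 1.51 to 3.86 (median 2.03) and BMP2 geometric means of 0.12 to 0.616 (median 0.475). Sema5a, a semaphorin that guides axons, was at 16.5, 7.18 and 8.17 CPM without GSK126 and at 54.3, 27.1 and 38.0 CPM with it. It was the member whose 2 combination libraries both stood clear above vehicle, at 1.64 (1.49 to 1.81) and 2.3 (2.1 to 2.53) times its level. Gng2, a G protein gamma subunit, was at 2.0, 1.31 and 0.128 CPM without GSK126 and at 13.5, 2.07 and 0.437 CPM with it. Agt, the precursor of angiotensin peptides, was at 14.0, 5.07 and 4.59 CPM without GSK126 and at 22.8, 15.6 and 9.83 CPM with it. The GSK126 ratio of Agt was largest at 10 ng/ml (3.07, interval 2.59 to 3.65).

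Spry1, an inhibitor of receptor tyrosine kinase signalling, was at 23.5, 14.1 and 7.69 CPM without GSK126 and at 34.1, 20.6 and 13.1 CPM with it. Camk2a, the alpha subunit of a calcium and calmodulin dependent kinase, was at 25.5, 17.4 and 7.24 CPM without GSK126 and at 44.3, 26.3 and 9.52 CPM with it. Dusp27, a member of the dual specificity phosphatase family, was at 22.7, 16.9 and 12.4 CPM without GSK126 and at 38.5, 26.5 and 16.4 CPM with it. In these 3 genes every GSK126 ratio lay between 1.31 and 1.74, and levels were lower at each higher dose with and without GSK126. Rgs2, which speeds GTP hydrolysis by G protein alpha subunits, was at 2.66, 0.388 and 0.415 CPM without GSK126 and at 3.37, 1.13 and 0.996 CPM with it. Pear1, a receptor of the EGF-repeat family first described on platelets and endothelium, was at 3.07, 2.09 and 1.6 CPM without GSK126 and at 5.03, 2.92 and 2.45 CPM with it. The other signalling members were Pag1, Inpp4b and Tspan2.

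Of the 6 metabolism and transport members, whose GSK126 geometric means were 1.42 to 3.24 (median 2.22) and BMP2 geometric means 0.23 to 0.527 (median 0.416), Tmem86a had the highest level of all 36 on the authors' length-scaled measure. Its deposited RPKM in the day 6 vehicle library was 24.4, followed by 6.25 for Spry1 and 5.06 for Agt, and the lowest was 0.101 for Hmcn1. Tmem86a, a membrane enzyme that hydrolyses lysoplasmalogens, was at 66.0, 17.5 and 5.55 CPM without GSK126 and at 88.3, 39.9 and 24.7 CPM with it. Its GSK126 ratio was larger at each higher dose, at 1.34 (1.27 to 1.41), 2.28 (2.08 to 2.51) and 4.45 (3.79 to 5.26), and these intervals do not overlap. Cth, an enzyme of cysteine synthesis, was at 8.71, 5.6 and 2.46 CPM without GSK126 and at 22.2, 13.3 and 9.52 CPM with it. Slc7a2, a transporter of cationic amino acids, was at 41.7, 26.8 and 19.4 CPM without GSK126 and at 62.3, 40.4 and 24.7 CPM with it. Dhrs9, a retinol and steroid dehydrogenase, was at 1.28, 0.477 and 0.287 CPM without GSK126 and at 3.6, 1.85 and 0.898 CPM with it. Lrrc8b, a subunit of volume-regulated anion channels, was at 9.09, 6.11 and 2.52 CPM without GSK126 and at 12.1, 8.56 and 6.58 CPM with it. Like Tmem86a, Lrrc8b and Cth had their largest GSK126 ratio at 50 ng/ml (2.61 and 3.87). Slc25a23, a mitochondrial carrier, completed this group.

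Among the 4 microtubule and vesicle members Reps2, an EH domain protein of endocytosis, was at 11, 1.73 and 0.957 CPM without GSK126 and at 20.3, 2.99 and 1.36 CPM with it. BMP2 at 50 ng/ml left 0.0871 of its level (0.058 to 0.126) without GSK126 and 0.0671 (0.0502 to 0.0881) with it. Mapt, the microtubule-binding protein tau, was at 3.33, 2.33 and 1.47 CPM without GSK126 and at 4.24, 2.99 and 2.67 CPM with it. Nckap5 also belongs to this set. Further members were Zfp167, Scml4 and Gspt2, grouped as nuclear or translation genes. Their GSK126 geometric means were 1.43 to 2.43 and their BMP2 geometric means 0.382 to 0.591. Zfp167 is named Zkscan7 in GENCODE M21 and is typed there as a transcribed unprocessed pseudogene. C630004H02Rik (named Hid1 in GENCODE M21) and C920006O11Rik, a long noncoding RNA gene in that annotation, were members too.

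The GSK126 ratio was largest without BMP2 in 10 members, at 10 ng/ml in 8 and at 50 ng/ml in 18. These are point values, and no share over all genes is given for them. Eln, H19 and Col23a1 were in the first set, and Tmem86a, Tnxb and Sema5a in the last. Of these, Eln, H19 and Tnxb had only 4, 5 and 7 read pairs in 50 ng/ml BMP2 without GSK126. At 50 ng/ml 31 of 36 members were lower than at 10 ng/ml without GSK126 (median ratio 0.549, beside 0.901 over all genes). With GSK126 33 were lower (0.626, beside 0.939), and 30 members were lower in both settings. Most genes shared this direction, as only 28.9% of all genes without GSK126 and 33.0% with it were higher at 50 ng/ml.

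When both agents were given together, the members' median level was below vehicle, and so was that of all genes. With 10 ng/ml BMP2 and GSK126 the median ratio to vehicle was 0.946 (0.911 over all genes). At this dose 15 members were above vehicle and 21 below, and 36.7% of all genes were above. The counting interval lay above 1 in 8 members and below 1 in 9. With 50 ng/ml BMP2 and GSK126 the median was 0.7 (0.859 over all genes). Here 5 members were above and 31 below, and 29.7% of all genes were above. Intervals lay above 1 in 1 member (Sema5a) and below 1 in 22. No share over all genes is given for the interval counts. Both combination libraries were above vehicle in 5 members, both below in 21, and the lower dose was above and the higher below in 10. Eln was one of the last, at 4.06 (3.08 to 5.43) and 0.443 (0.275 to 0.7) times vehicle, and so was Col23a1, at 3.94 (2.8 to 5.67) and 0.902 (0.566 to 1.43). All 8 matrix and secreted members were below vehicle with 50 ng/ml BMP2 and GSK126. Divided by the product of the single-agent ratios, the combination gave a median of 1.01 at 10 ng/ml and 1.15 at 50 ng/ml over the members, beside 1.0 and 1.04 over all genes, with a range from 0.234 to 3.44 over both doses.

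**Figure D4:**
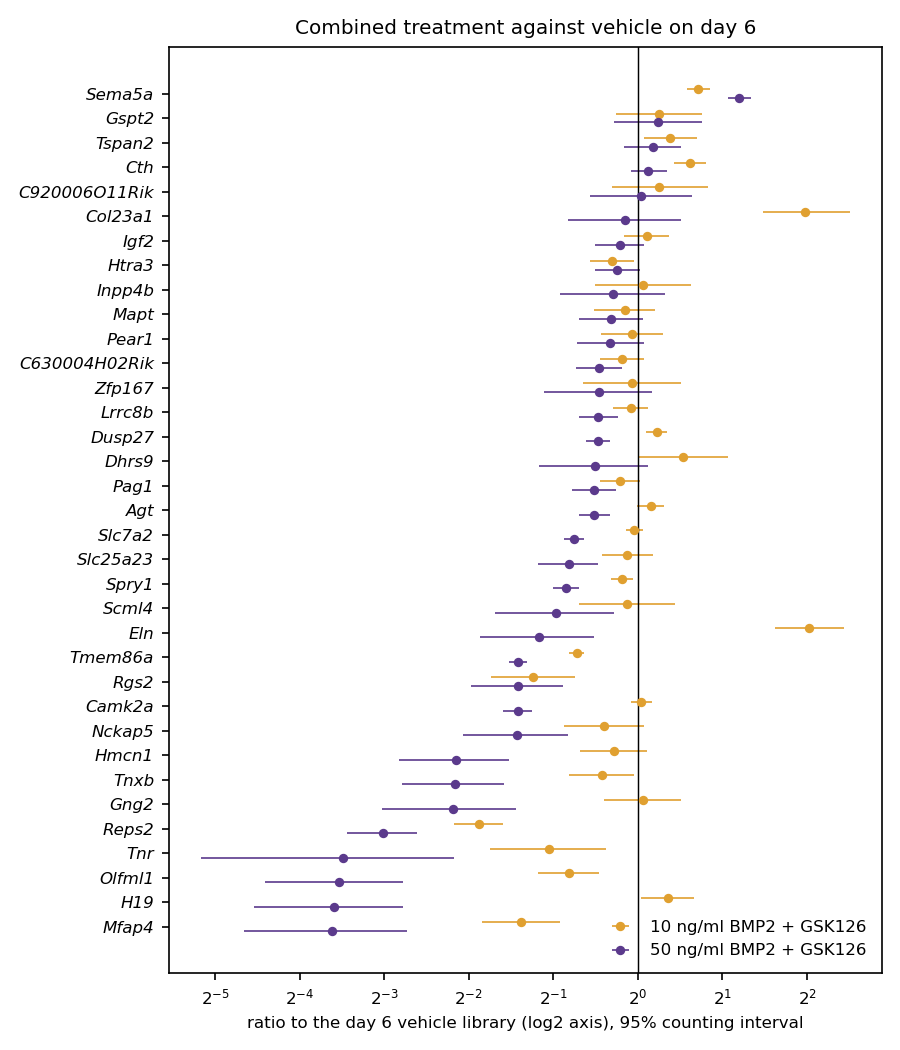
Ratio of each combination library to the day 6 vehicle library for 35 of the 36 genes on a log2 axis, orange for 10 and purple for 50 ng/ml BMP2 with GSK126, bars giving 95% counting intervals. Orange points lie on both sides of 1 (15 above and 20 below), while 30 of 35 purple points lie below 1 and Sema5a stands highest at 2.3.

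Most members were higher in the day 6 than in the day 1 vehicle library. The median ratio of day 6 to day 1 was 5.0 (0.986 over all genes), 30 members were higher on day 6, and 24 were at least 2-fold higher. On day 1 all 6 libraries were under 1 CPM for 15 members, and Eln, Hmcn1 and Olfml1 were at or under 3 pairs in every one. Agt was 92.1 times (39.2 to 285) its day 1 vehicle level, and Mfap4 108 times (19 to 4280). Dhrs9 was the only member at or below 0.5 of its day 1 level, at 0.408. Days differ in 1 library each per treatment, so these ratios have no replicate check.

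Day 1 was not used to choose the members, and the 6 day 1 libraries gave the only tests that the choice left independent. The spread in them is what a fit of GSK126 and of each BMP2 dose leaves over, with 2 residual degrees of freedom, so libraries with a treatment in common take the place of replicates (n = 6 libraries), and a p-value reflects the scatter among these libraries, which may be technical. In that fit 11681 genes were tested, and 17 of the 36 members passed its filter on low levels. Those 17 are the members with more RNA on day 1, and do not stand for the other 19.

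GSK126 raised Slc7a2, Htra3 and Pear1 on day 1 and lowered none of the 17 members tested. Those 3 of 17 stand beside 8.87% of all genes tested that were called higher and 7.26% called lower. Slc7a2 was at 54.1, 53 and 44.7 CPM at 0, 10 and 50 ng/ml BMP2 without GSK126 and at 65.9, 58.0 and 53.4 CPM with it, higher at all 3 doses. The fitted log2 fold change of Slc7a2 was 0.21 ± 0.03 (SE, adjusted p = 0.00296, edgeR quasi-likelihood test). Htra3 was at 6.1, 7.78 and 8.65 CPM without GSK126 and at 8.24, 9.15 and 10.4 CPM with it, a log2 change of 0.30 ± 0.07 (adjusted p = 0.0216). Pear1 was at 5.7, 4.79 and 4.9 CPM without GSK126 and at 6.64, 6.03 and 6.5 CPM with it, where the groups did not overlap (0.31 ± 0.09, adjusted p = 0.0346). Of the 17, 7 had an unadjusted p under 0.05, none of them with a change below 0. The matching share over all genes is not given here, so that count cannot be set against it. The fitted change was above 0 in 15 of 17, with a median of 0.23 beside 0.0026 over all genes. Sema5a and Dhrs9, among the larger GSK126 ratios of day 6, had log2 changes of 0.07 ± 0.15 and 0.06 ± 0.14 on day 1. No gene was called for GSK126 (0 of all tested, members included) when both days were fitted together, and without the day 1 vehicle library or the day 1 library with GSK126 alone Slc7a2 was the only member called. Over 15 alternatives the Pear1 call was lost in 9, that of Htra3 in 4 and that of Slc7a2 in 2.

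BMP2 lowered 9 of the 17 members tested on day 1, beside 19.1% of all genes, and raised 2, beside 20.6%. The largest falls were in Mapt, Camk2a and Dusp27. Mapt was at 4.57, 1.66 and 1.1 CPM at 0, 10 and 50 ng/ml without GSK126 and at 5.07, 2.13 and 1.69 CPM with it, a log2 change of -1.53 ± 0.14 (adjusted p = 6.49e-06). Camk2a was at 4.94, 2.71 and 1.66 CPM without GSK126 and at 5.22, 2.37 and 1.75 CPM with it (-1.25 ± 0.12, adjusted p = 1.41e-05). Dusp27 was at 7.65, 3.98 and 3.31 CPM without GSK126 and at 7.78, 4.61 and 3.29 CPM with it (-0.99 ± 0.10, adjusted p = 1.39e-05). In all 3 genes the libraries without BMP2 stood above all 4 with it. Other members called lower included Dhrs9 (log2 change -0.74), Lrrc8b (-0.71), Cth (-0.70), Tmem86a (-0.55) and Slc7a2 (-0.15). Lrrc8b, for instance, was at 8.96, 5.57 and 4.6 CPM without GSK126 and at 10.1, 6.42 and 5.98 CPM with it.

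Htra3 and Sema5a had the opposite direction to day 6. BMP2 raised Htra3 on day 1 by 0.37 ± 0.08 on the log2 scale (adjusted p = 0.00358), with all 4 BMP2 libraries above the library without BMP2 at the same GSK126 level. It raised Sema5a by 0.48 ± 0.17 (adjusted p = 0.0421), from 1.98 to 2.58 and 2.26 CPM without GSK126 and from 1.81 to 2.33 and 3.11 CPM with it. By dose, 10 ng/ml BMP2 lowered 6 members (13.0% of all genes) and raised 1 (14.9%), and 50 ng/ml lowered 9 (19.6%) and raised 2 (20.8%). Over all genes BMP2 was called higher in 2403 and lower in 2226, and with scaling to library size alone in 1606 and 3362. That scaling called 9 members lower and only Htra3 higher. With both days in 1 fit only Mapt, Camk2a and Dusp27 stayed past the threshold, and without the day 1 library given GSK126 alone the lower members were Mapt, Camk2a, Dusp27, Cth and Lrrc8b. Without the day 1 vehicle library no member was called higher. Over 15 alternatives the rise of Sema5a lost its call in 8 and that of Htra3 in 2.

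**Figure D5:**
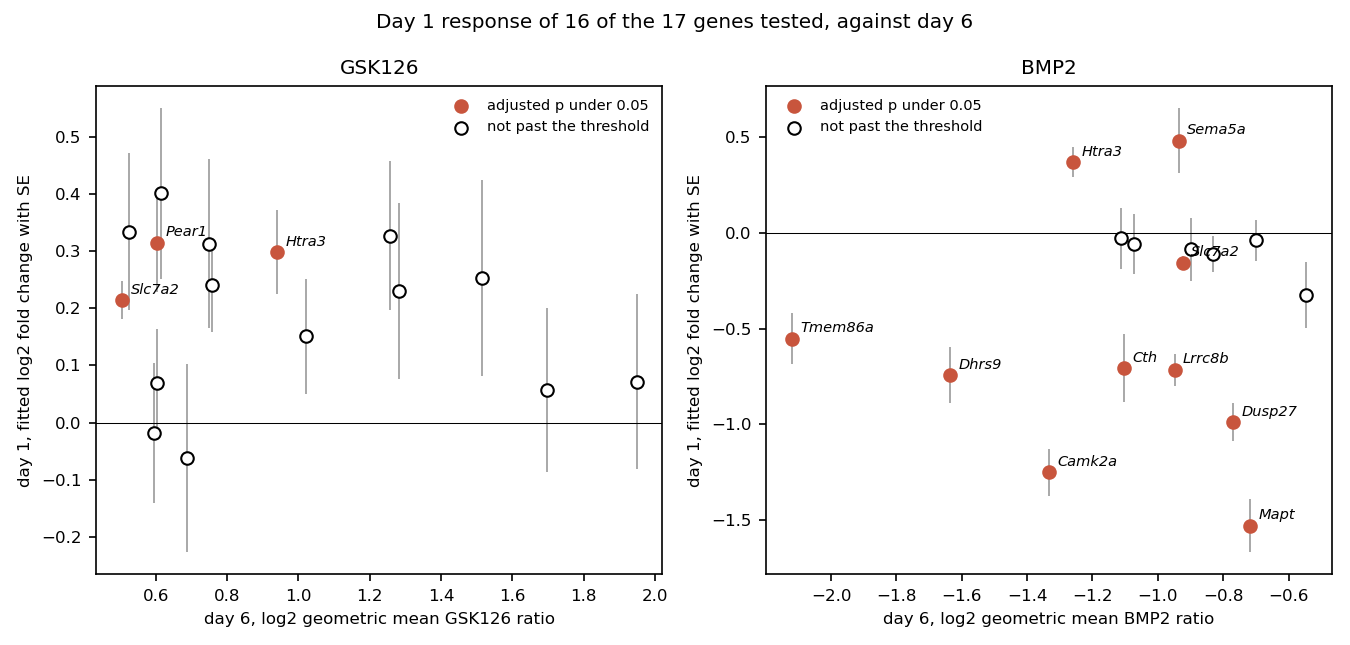
Fitted log2 fold change on day 1 with its standard error for 16 of the 17 members tested, against the log2 geometric mean ratio of day 6, for GSK126 (left) and BMP2 (right); red points passed an adjusted p of 0.05. In the BMP2 panel 8 red points lie below 0, down to Mapt at -1.53, and Htra3 and Sema5a lie above 0.

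Related genes on day 1 were mixed. Of 8 genes of the IGF axis tested, GSK126 raised 5 (Igf1 0.19, Igf2r 0.09, Igfbp4 0.21, Igfbp5 0.56 and Igfbp6 0.18, log2) and lowered none. BMP2 raised 2 and lowered 4, among them Igf1 (-0.94 ± 0.04, adjusted p = 7.5e-09) and Igfbp5 (1.4 ± 0.03, adjusted p = 6.5e-11). The member Igf2 was too low on day 1 to be tested. Of 17 proteoglycan and elastic fibre genes tested, BMP2 raised 7 and lowered 7, while GSK126 raised 5 and lowered 1. Neither Eln nor Mfap4 was among them, as both were under 1 CPM in all 6 day 1 libraries.

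All 36 members were found in the GENCODE M21 annotation of GRCm38, 33 of them as protein-coding genes. The exons of 13 overlap those of another gene, among them Eln (with Gm30003), H19 (with Mir675), Igf2 (with Igf2os) and Mfap4 (with Mapk7). The strand setting of the counting is not given in the sources used here, so reads of such a pair cannot be told apart.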

How the data were processed

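The table holds gene counts and RPKM for 12 libraries, deposited by the authors and matched to conditions by column name. Counts were made by the authors, with bcl2fastq, TopHat2 2.0.6 and HTSeq and the mm10 build per the submitters' processing notes. The counting settings and gene models used are not given in the sources at hand. RPKM (scaled by the authors to gene length and a library total) served only to compare levels between genes. Positions are those of the deposited table, in mm10.

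Counts were tested as deposited, without Rn45s (8.96% to 21.7% of counts) and the 69 rows that share a name. All 195176 counts above 0 were even. The day 1 fit used edgeR 4.0.16 in R 4.3.3 (TMM, quasi-likelihood test, 4 coefficients, at least 1 CPM in 2 of the 6 libraries, Benjamini-Hochberg over all genes at 0.05). The BMP2 effect is the mean of both doses' coefficients, and a standard error is the fold change over the root of F. Intervals of ratios and levels are exact, on read pairs. Alternatives included DESeq2 1.42.0 and voom in limma 3.58.1. On simulated counts of 11681 genes, the GSK126 contrast of day 1 recovered 91% of changes of log2 size 0.5 and 100% of size 1 and 2, with 12 false calls. The simulated counts held no BMP2 effect and took their spread from the same fit, so these shares do not measure recovery in the real libraries.

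Named members were the 10 highest in vehicle, the 10 of largest GSK126 and of smallest BMP2 geometric mean ratio, those called on day 1, those in a listed pathway and those nearest a limit; Gm and Rik names were left out. The members and lists were chosen with earlier results of these data known, and the members were put into role groups after they were seen. Calls were counted in 36 gene lists, and lists that hold no member and are no cell marker are not described. Some results, among them those of 1 member, are not reported here.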

Additional observations from a re-analysis of the deposited data

Results flagged for a closer look

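Among members with more than 3 read pairs in every day 1 library, 6 had each day 1 ratio to 1 of the agents on the other side of 1 from each day 6 ratio; in each case the difference between the days was not tested. With GSK126, H19 was lower at 3 of 3 BMP2 doses on day 1 (geometric mean ratio 0.574) and higher at 3 of 3 on day 6 (3.23). Its day 1 levels were 0.0969 to 0.373 CPM, with as few as 5 read pairs in a library. Inpp4b, a phosphoinositide phosphatase, had a day 1 GSK126 ratio of 0.856 against 2.08 on day 6, and Nckap5 one of 0.972 against 1.91. Both were under 1 CPM in all 6 day 1 libraries, and their day 1 ratios were close to 1.

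With BMP2, 3 members above the same limit of read pairs were higher in 4 of 4 comparisons on day 1 and lower in 4 of 4 on day 6. Htra3 had a geometric mean BMP2 ratio of 1.26 on day 1 and 0.418 on day 6, with at least 200 read pairs in each day 1 library. Sema5a had 1.34 on day 1 and 0.523 on day 6. Tnr had 2.28 on day 1 and 0.101 on day 6, and on day 1 it was at 0.152, 0.468 and 0.49 CPM at 0, 10 and 50 ng/ml without GSK126 and at 0.387, 0.62 and 0.663 CPM with it. Tnr did not pass the filter on low levels; without that filter its day 1 BMP2 change was 1.11 ± 0.36 on the log2 scale (adjusted p = 0.016, edgeR). That fit also called 3 further members that the filter had removed, all lower with BMP2 as on day 6: Slc25a23 (-1.25 ± 0.33, adjusted p = 0.0033), C630004H02Rik (-0.88 ± 0.24, adjusted p = 0.0041) and Col23a1 (-1.07 ± 0.40, adjusted p = 0.044). Gng2 was opposite to day 6 for both agents (day 1 geometric mean ratios 0.553 for GSK126 and 3.25 for BMP2), but it is not counted above because its day 1 libraries held as few as 1 read pair and it was at 0.0242 to 0.187 CPM.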

How the results depend on the processing

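No paired analysis was possible because each condition has 1 library and the labels give no replicate numbers. The number of members, 36, was 38 with Rn45s in the total (35 shared) and 33 with TMM scaling (32 shared), 11 with limits of 1.5 and 0.67, 14 with vehicle of at least 5 CPM, and 45 to 182 with each day 6 library other than vehicle left out (an alternative chosen after seeing the data), which also leaves fewer criteria. On day 1, the 1884 genes called for GSK126 were 1199 with DESeq2, 0 with both days in 1 fit, 17 with any BMP2 as 2 levels and 822 to 2193 with each library left out. The 3 members called higher were 5 with no filter on low counts, 0 with both days or with any BMP2, and 1 to 3 with a library left out; none was called lower under any alternative run. The 4629 genes called for BMP2 were 463 with both days, 2948 with any BMP2 and 2677 to 4799 with a library left out. Members higher with BMP2, 2, were 1 with DESeq2, library size scaling or any BMP2, 0 with both days and 0 to 2 with a library left out; members lower, 9, were 3 with both days and 5 to 9 with a library left out. For 10 ng/ml, 3265 genes became 79 with both days and 1753 to 3959 with a library left out; the 1 member higher became 0 with DESeq2, voom, library size scaling, both days or halved counts and 0 to 1 with a library left out, and the 6 lower became 3 with both days and 4 to 7. For 50 ng/ml, 4714 genes became 499 and 3133 to 5185; the 2 members higher became 1 with DESeq2, 0 with both days and 1 to 2, and the 9 lower became 4 with both days and 6 to 9. The cause of these shifts was not tested. Mapt, Camk2a and Dusp27 kept their BMP2 call in 15 of 15 alternatives, and no named member changed direction in any. Depth limits the members under 1 CPM on day 1, where 8 had a library at or under 3 pairs.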
